A study of Mus musculus with 6 samples.

Results

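Creatine kinase and adenylate kinase pass high-energy phosphate between ATP, creatine and the adenine nucleotides, and the genes described here are those of the muscle enzymes. The rule named 4 genes, Ckm, Ckmt2, Ak1 and Ampd1, and took the features annotated to them that had values, 1 per gene, the brightest on average. It gave 2 genes with 1 feature each, Ckm and Ak1, out of 6373 features with a gene symbol and 10500 features in all. Ckmt2, the sarcomeric mitochondrial creatine kinase, and Ampd1, the muscle AMP deaminase, were not analysed here. Satellite cells, which give rise to myoblasts, were taken from hind limb muscle of Swiss Webster mice, 3 adult males, and each mouse supplied 1 differentiated and 1 proliferating culture, so that 6 arrays form 3 pairs. The labels number both groups 1 to 3 and do not state that a number is a mouse, and arrays of the same number are taken here as the same mouse. For differentiation, FGF was withdrawn for 72 hours and the medium held 10% horse serum with insulin at 1 mM, as the labels give it, while proliferating cultures were harvested from medium with bFGF at 6.6 ng/ml. Both were expanded the same way from muscle pooled within the mouse, as a mix of myoblast clones left after repeated preplating to remove fibroblasts, and were grown on gelatin.

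Muscle spends ATP in bursts that outrun its resynthesis. Creatine kinase regenerates ATP from phosphocreatine beside the myosin heads and the calcium pump, and adenylate kinase recovers ATP from pairs of ADP molecules, leaving AMP. AMP deaminase removes that AMP as IMP, and adenylosuccinate synthase and lyase turn IMP back into AMP, which closes the purine nucleotide cycle. Ckm is a classical late marker of the myotube, and its enhancer, known from mouse, binds myogenic bHLH factors at E-boxes.

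The bases just before the annotated start of both genes are shown because both had higher values in differentiated cultures of every mouse and because E-boxes, CANNTG, are the letters that myogenic bHLH factors recognise. The sequences are RefSeq's for GRCm38.p6, each the 250 bases before a start on the strand of the gene, with every E-box in capitals. RefSeq gave 1 start for Ckm and 4 for Ak1. Of the 4 Ak1 windows, the first is the one farthest upstream, and the third is printed because it alone held CACCTG or its reverse complement CAGGTG, a form of the E-box.
Ckm, chr7:19410844-19411093, plus strand: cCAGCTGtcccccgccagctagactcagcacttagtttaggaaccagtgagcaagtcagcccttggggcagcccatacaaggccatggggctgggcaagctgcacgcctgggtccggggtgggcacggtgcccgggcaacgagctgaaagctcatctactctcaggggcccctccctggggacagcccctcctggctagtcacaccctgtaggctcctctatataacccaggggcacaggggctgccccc
Ak1, the first start, chr2:32621508-32621757, plus strand: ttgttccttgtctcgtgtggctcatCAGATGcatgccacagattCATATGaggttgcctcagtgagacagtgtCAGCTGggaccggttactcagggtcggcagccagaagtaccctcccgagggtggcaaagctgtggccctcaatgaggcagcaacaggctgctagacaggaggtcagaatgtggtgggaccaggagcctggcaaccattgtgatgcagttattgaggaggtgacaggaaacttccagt
Ak1, the third start, chr2:32628140-32628389, plus strand: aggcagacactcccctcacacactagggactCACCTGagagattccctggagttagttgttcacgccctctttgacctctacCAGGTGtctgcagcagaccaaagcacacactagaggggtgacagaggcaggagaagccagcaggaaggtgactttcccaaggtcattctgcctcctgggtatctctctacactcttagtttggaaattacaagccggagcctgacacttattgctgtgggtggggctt

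The Ckm window held 1 E-box, at position -249 relative to the start. The Ak1 windows held 3, 1, 2 and 1 E-boxes in order along the chromosome. An E-box on either strand stood in 66.2% of all 32851 promoter windows of this length. CACCTG or CAGGTG stood in 17.2% of all windows, in 2 places of the third Ak1 window and in 0 places of the Ckm window. TATAAA on either strand (12.4% of windows), the MEF2 site (2.92%) and the CArG box (1.47%) were found 0 times in the Ckm and Ak1 windows. The Ckm window does hold TATATAA, a similar run of letters that the search for TATAAA does not count. The counts for Ckm and Ak1 cover the printed lengths and the other Ak1 windows only, and the Ckm enhancer lies farther upstream, outside them. The same search found 4 E-boxes in the Ckmt2 window. It found 2 each in the windows of Adssl1 and Adss, enzymes described below, of which Adss was lower in differentiated cultures.

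Ckm, which encodes the cytosolic muscle creatine kinase, was higher in the differentiated culture of each of the 3 mice, but the mice differed so widely that the groups overlapped. Its intensity, in the authors' units with array medians a little under 1, was 51.4, 1.00 and 47.9 in differentiated cultures of mice 1, 2 and 3, against 7.05, 0.103 and 1.49 in proliferating cultures. Differentiated replicate 2 was thus dimmer than proliferating replicates 1 and 3, although it was far brighter than the proliferating culture of its own mouse. Within mice the differentiated culture was 7.29-fold, 9.77-fold and 32.2-fold higher. On the log2 scale the changes were 2.87, 3.29 and 5.01, with a mean of 3.72 ± 1.14 (SD, n = 3 mice). In cultures such as these a larger share of cells with the transcript and more transcript per cell cannot be told apart.

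**Figure D1:**
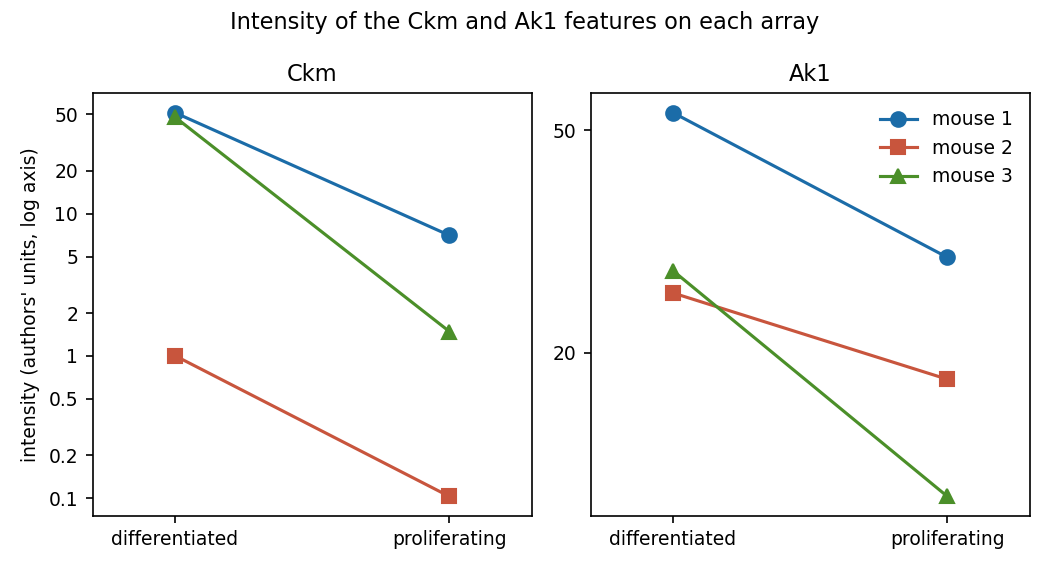
Intensity of the Ckm and Ak1 features (log axes with their own ranges, authors' units) in differentiated and proliferating cultures, with 1 line per mouse joining the pair. All 6 lines are higher at the differentiated end; the Ckm lines keep the order of mice 1, 3 and 2, and mouse 2 lies far below the others in both cultures.

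Across all 10186 features tested, the limma fit without a term for mouse gave Ckm a log2 difference of 3.72 ± 1.86 (SE), a 13.2-fold higher geometric mean, with a 95% interval from -0.55 to 7.99 and an adjusted p of 0.402. Ckm therefore did not pass the threshold of 0.05, although 37 features, itself included, had an increase at least as large. An exact two-sided permutation test over the 6 arrays, which ignores the pairing, gave p = 0.3, where the smallest p that 3 against 3 allows is 0.1. The exact paired permutation test gave p = 0.25. That is the smallest that 3 pairs allow, and any feature with the same direction in all 3 mice reaches it. A fixed-mouse fit, which takes mouse as a block, had an SE of 0.50 and an interval from 2.42 to 5.03, and a random-mouse fit, which takes it as a random effect, had an interval from 1.23 to 6.21. Both limma fits left Ckm just above the threshold (adjusted p = 0.0516 and 0.0672). In sums of squares, mouse held 63.8% of the variation of Ckm over the 6 arrays, culture condition 34.1% and the remainder 2.12%. Over all 10128 features with 6 values the medians were 52.0% for mouse, 19.4% for condition and 13.9% for the remainder.

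Ak1, which encodes the cytosolic adenylate kinase of muscle, showed a smaller difference in the same direction. Its intensity was 53.8, 25.6 and 28.1 in differentiated cultures of mice 1, 2 and 3, against 29.6, 17.9 and 11.1 in proliferating cultures. The groups overlapped, since proliferating replicate 1 was brighter than differentiated replicates 2 and 3, but every differentiated culture was above its own partner. The folds within mice were 1.82, 1.43 and 2.53, and the mean log2 change was 0.90 ± 0.42 (SD, n = 3 mice). The limma difference was 0.90 ± 0.53 (SE), or 1.87-fold, with a 95% interval from -0.32 to 2.13 and an adjusted p of 0.489. It did not pass in the fixed-mouse fit or the random-mouse fit of limma either (adjusted p = 0.168 and 0.139), where the intervals ran from 0.105 to 1.70 and from 0.10 to 1.71. The exact two-sided permutation test gave p = 0.3 for Ak1 too. For Ak1, mouse held 52.0% and condition 42.1% of the variation.

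Neither member was among the features called. Without a block 0 of 2 members passed, against 0.285% of all features called higher and 1.01% called lower. In the fixed-mouse fit it was again 0 of 2, against 0.56% higher and 0.874% lower, and in the random-mouse fit 0 of 2, against 5.07% higher and 5.28% lower. Both members were higher in all 3 mice, as were 31.0% of the features with 6 values, while 18.0% were lower in all 3. An increase of the size of Ckm's was rare (99.6th percentile of all signed log2 differences). That of Ak1 stood at the 82.5th percentile, with a median over all features of 0.20. Decreases of that size were not counted, and the 7 measured proliferation genes had a median log2 difference of -4.23. The log2 change of Ckm exceeded that of Ak1 in each mouse, by 2.01, 2.78 and 3.67. The exact paired permutation test of this excess gave p = 0.25, the smallest that 3 pairs allow.

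The members also differed in how far they stood above the dim end of the arrays. Ak1 lay between the 92.5th and 94.6th percentile of all features on differentiated arrays and between the 87.8th and 93.1st on proliferating arrays, so its signal was bright throughout. Ckm lay at the 94.4th, 51.2nd and 96.2nd percentile on differentiated arrays of mice 1, 2 and 3, against the 78.2nd, 16.7th and 57.7th on proliferating arrays. The value of 0.103 in proliferating replicate 2 is below the 25th percentile of positive values, 0.179. With a pseudocount of that size the Ckm difference was 3.25.

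Ckm in differentiated replicate 2 was singled out after its values were seen, as were the muscle lineage genes named beside it. There its log2 value minus the mean of differentiated replicates 1 and 3 was -5.63. No other feature among the 10128 with 6 values lay as low on that array relative to the other differentiated arrays, the next lowest was at -4.82, and the median feature at -0.19. The culture did carry other muscle transcripts at levels nearer those of its group. Tnnt3, a fast troponin, had intensities of 305, 184 and 284 in differentiated cultures of mice 1, 2 and 3, and Atp2a1, the fast calcium pump, had 93.3, 176 and 185. Over the 12 measured genes of the muscle lineage list, the same log2 deviation ran from -1.28 (Mymk, the fusion protein myomaker) to 0.16 (Tnnc1, the slow troponin C), with a median of -0.67. For Ak1 it was -0.60. Below the range of that list lay, among others, Adssl1, the muscle adenylosuccinate synthase, at -1.88, and Ckb, the brain-type creatine kinase, at -1.34. Adsl, the adenylosuccinate lyase, lay there too, at -1.37, as did Fbxw5, picked below for its likeness to Ckm, at -1.57.

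**Figure D2:**
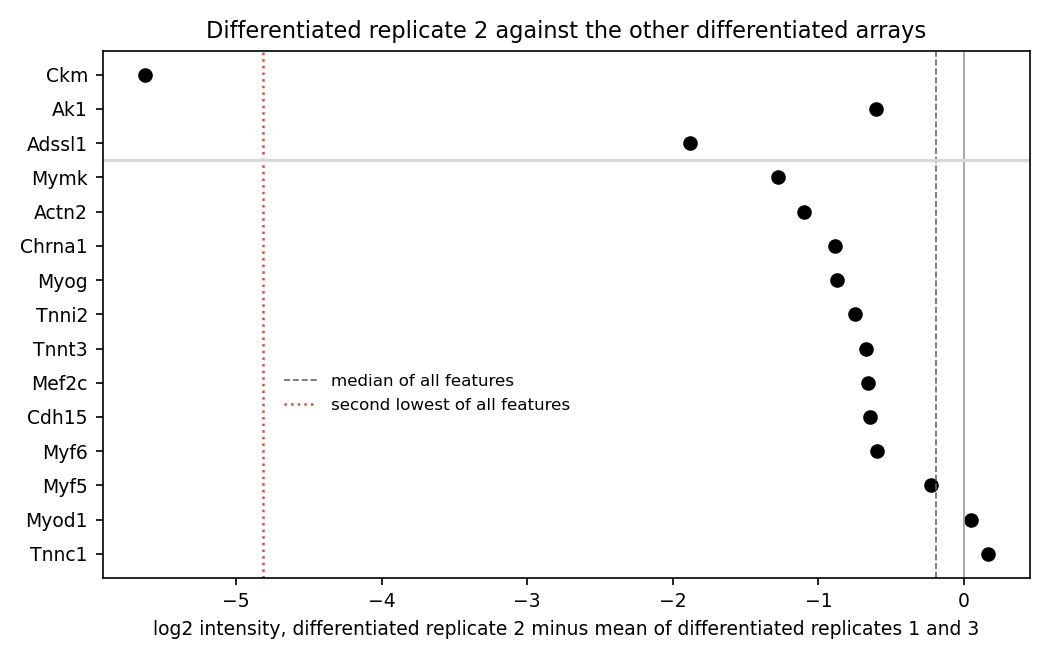
Log2 intensity in differentiated replicate 2 minus the mean of differentiated replicates 1 and 3, for Ckm, Ak1, Adssl1 and 12 genes of the muscle lineage list (1 point per gene), with the median of all features dashed and the next lowest feature after Ckm dotted. Ckm lies at -5.63 and Adssl1 at -1.88, while the muscle lineage genes lie between -1.28 and 0.16.

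In the proliferating culture of the same mouse Ckm was also low, at -4.98 on the log2 scale relative to the mean of proliferating replicates 1 and 3. Only 2 other features of 10128 lay as low there. The 12 muscle lineage genes had a median of -1.70 and reached -4.29 for Actn2, the sarcomeric alpha-actinin. Proliferating replicate 1 was the brightest and replicate 2 the dimmest for 10 of these 12 genes, the order that Ckm showed, against 23.2% of all features. On the differentiated arrays 5 of the 12 showed that order, against 30.0% of all features. In proliferating cultures the low Ckm value of mouse 2 thus stood beside low values of most muscle lineage genes. The part of mouse, culture or feature in it was not tested.

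The other measured creatine kinases were not higher in every mouse. Ckb, the brain-type cytosolic isoform, had intensities of 26.9, 10.9 and 28.6 in differentiated cultures of mice 1, 2 and 3, against 17.5, 18.7 and 9.95 in proliferating cultures. It was higher in mice 1 and 3 and lower in mouse 2, with a log2 difference of 0.46 ± 0.53 (SE, limma adjusted p = 0.772). Ckmt1, the ubiquitous mitochondrial isoform, stayed dim, at 0.060 to 0.277 in differentiated and 0.086 to 0.100 in proliferating cultures (limma adjusted p = 0.794). Of the enzymes that make creatine, Gamt, the methyltransferase of the last step, separated the groups, with 21.7, 15.1 and 31.4 in differentiated cultures against 11.5, 8.06 and 11.3 in proliferating cultures. Its log2 difference was 1.10 ± 0.45 (SE) and did not pass (limma adjusted p = 0.304, and 0.0588 in the random-mouse fit). Gatm, the amidinotransferase of the first step, had 14.4, 12.7 and 11.2 in differentiated cultures, against 14.3, 2.88 and 6.92 in proliferating cultures. Mouse 1 hardly differed, mouse 2 was 4.43-fold higher, and the difference of 0.95 did not pass (limma adjusted p = 0.527).

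Ak4, a mitochondrial adenylate kinase, had intensities of 1.17, 0.424 and 0.371 in differentiated cultures of mice 1, 2 and 3, against 0.488, 0.267 and 0.394 in proliferating cultures. It was higher in mice 1 and 2 but not in mouse 3 (log2 difference 0.62 ± 0.56, SE, limma adjusted p = 0.688). Ampd3, the AMP deaminase also known from red blood cells, was higher in mouse 1 only, with a log2 difference of 0.26 ± 0.48 (SE, limma adjusted p = 0.869). Its intensities were 0.636 to 1.58 in differentiated cultures and 0.704 to 0.978 in proliferating cultures.

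The enzymes that follow AMP deamination showed opposite differences in the isozymes of adenylosuccinate synthase. Adss, the isozyme found in most tissues, fell to 1.96, 0.841 and 1.83 in differentiated cultures of mice 1, 2 and 3, against 12.4, 7.26 and 8.73 in proliferating cultures. The groups did not overlap, and the folds within mice were 6.34, 8.63 and 4.77 in favour of the proliferating culture. Its log2 difference was -2.68 ± 0.50 (SE), with a 95% interval from -3.81 to -1.54 (limma adjusted p = 0.0484). Adss also passed in the fixed-mouse and random-mouse fits of limma (adjusted p = 0.0495 and 0.0045). It passed narrowly: with each array centred on its median the adjusted p in limma was 0.0529, and leaving out any 1 array gave 0.0809 to 0.175, with differences of -2.90 to -2.29. Leaving out any 1 mouse gave a limma adjusted p of 0.135 to 0.342.

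Adssl1, the muscle isozyme, had intensities of 56.2, 7.93 and 15.2 in differentiated cultures, against 8.48, 1.09 and 4.52 in proliferating cultures. Unlike for Adss, the groups overlapped, since differentiated replicate 2 was dimmer than proliferating replicate 1. Mice kept the order 1, 3 and 2 in both groups, as for Ckm, and the folds within mice were 6.63, 7.31 and 3.36. The log2 difference of 2.45 ± 0.93 (SE) did not pass without a block (limma adjusted p = 0.272) or in the fixed-mouse fit (0.0554), and passed in the random-mouse fit (0.0331). Mouse held 47.2% of its variation and condition 50.7%, against 8.69% and 89.8% for Adss. Adsl, the lyase that completes the cycle, had a log2 difference of 0.28 ± 0.51 (SE, limma adjusted p = 0.869) and was lower in the differentiated culture of mouse 2.

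**Figure D3:**
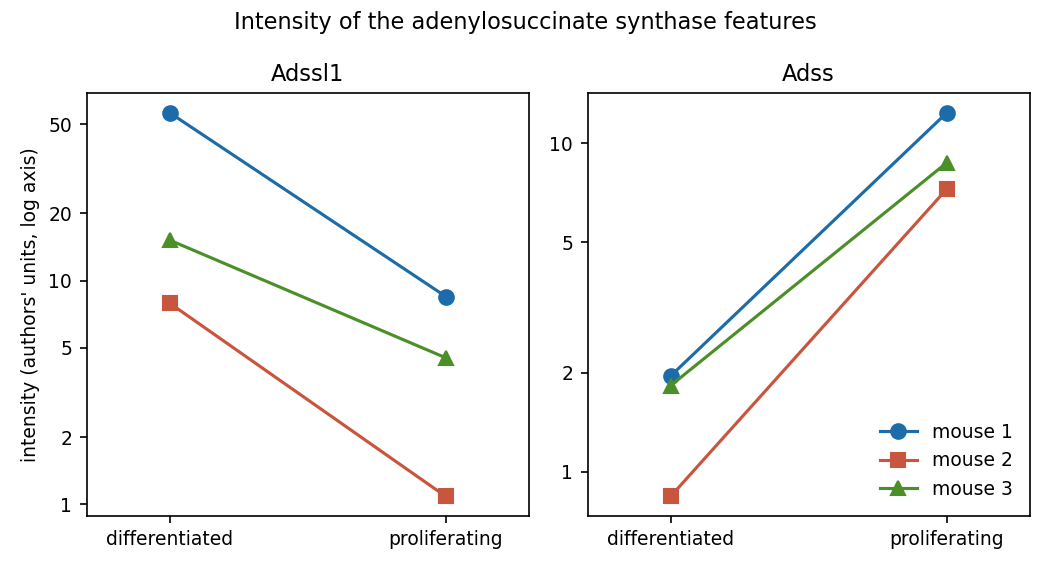
Intensity of Adssl1 and Adss (log axes with their own ranges, authors' units) in differentiated and proliferating cultures, with 1 line per mouse. Adssl1 is higher and Adss lower in the differentiated culture of all 3 mice.

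Pnp, the purine nucleoside phosphorylase that breaks down inosine, had intensities of 1.15, 1.36 and 2.22 in differentiated cultures, against 4.06, 12.2 and 7.51 in proliferating cultures. It was lower in all 3 mice without overlap, with a log2 difference of -2.25 ± 0.54 (SE). It did not pass without a block (limma adjusted p = 0.0952) or in the fixed-mouse fit (0.0717), and passed in the random-mouse fit (0.013). Guk1, the guanylate kinase, and Nme3, a nucleoside diphosphate kinase, had log2 differences of 0.93 and 0.67, higher in all 3 mice, and did not pass (limma adjusted p = 0.38 and 0.541). Vdac1 and Vdac2, channels of the outer mitochondrial membrane, had 0.45 and 0.63 (limma adjusted p = 0.727 and 0.624). The 1 measured subunit of AMP-activated protein kinase, Prkag1, had 0.27 and was higher in mouse 1 only (limma adjusted p = 0.902).

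Muscle creatine kinase is known to sit at the M band and at the calcium pump. Myom2, an M band protein, had intensities of 3.10, 5.14 and 3.44 in differentiated cultures of mice 1, 2 and 3, against 1.44, 0.121 and 0.478 in proliferating cultures. Atp2a1 had, beside the differentiated values above, 66.8, 7.75 and 25.3 in proliferating cultures. The groups did not overlap for either gene, and the log2 differences were 3.12 ± 0.84 and 2.62 ± 0.77 (SE). Neither passed without a block or in the fixed-mouse fit (limma adjusted p = 0.124 and 0.122 for Myom2, 0.155 and 0.142 for Atp2a1), and the random-mouse fit called both (0.0338 and 0.0463). For Atp2a1 the fold within mice was largest in mouse 2, at 22.7, whereas for Ckm it was largest in mouse 3. The proliferating value of Myom2 in mouse 2 is under the 25th percentile of positive values, and with a pseudocount at that percentile its log2 difference over the 3 mice was 2.55.

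Of 55 other genes on the lists for these pathways, 27 were measured. Without a block, limma called 0 higher and 1 lower (Adss), against 0.285% and 1.01% of all features. At an unadjusted p under 0.05 there were 5 higher and 2 lower, against 1519 of all 10186 features in either direction. The random-mouse fit called 3 higher (Adssl1, Myom2 and Atp2a1) and 2 lower (Adss and Pnp), against 5.07% and 5.28%, and the fixed-mouse fit 0 higher and 1 lower, against 0.56% and 0.874%. Their median log2 difference was 0.46, beside 0.20 over all features, and 11 were higher and 5 lower in all 3 mice, as were 31.0% and 18.0% of all features with 6 values. The groups did not overlap for 5 higher and 4 lower genes, while over all features with 6 values 10.9% were higher and 9.8% lower without overlap. These lists, like the members, were drawn up with earlier results of these data known.

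**Figure D4:**
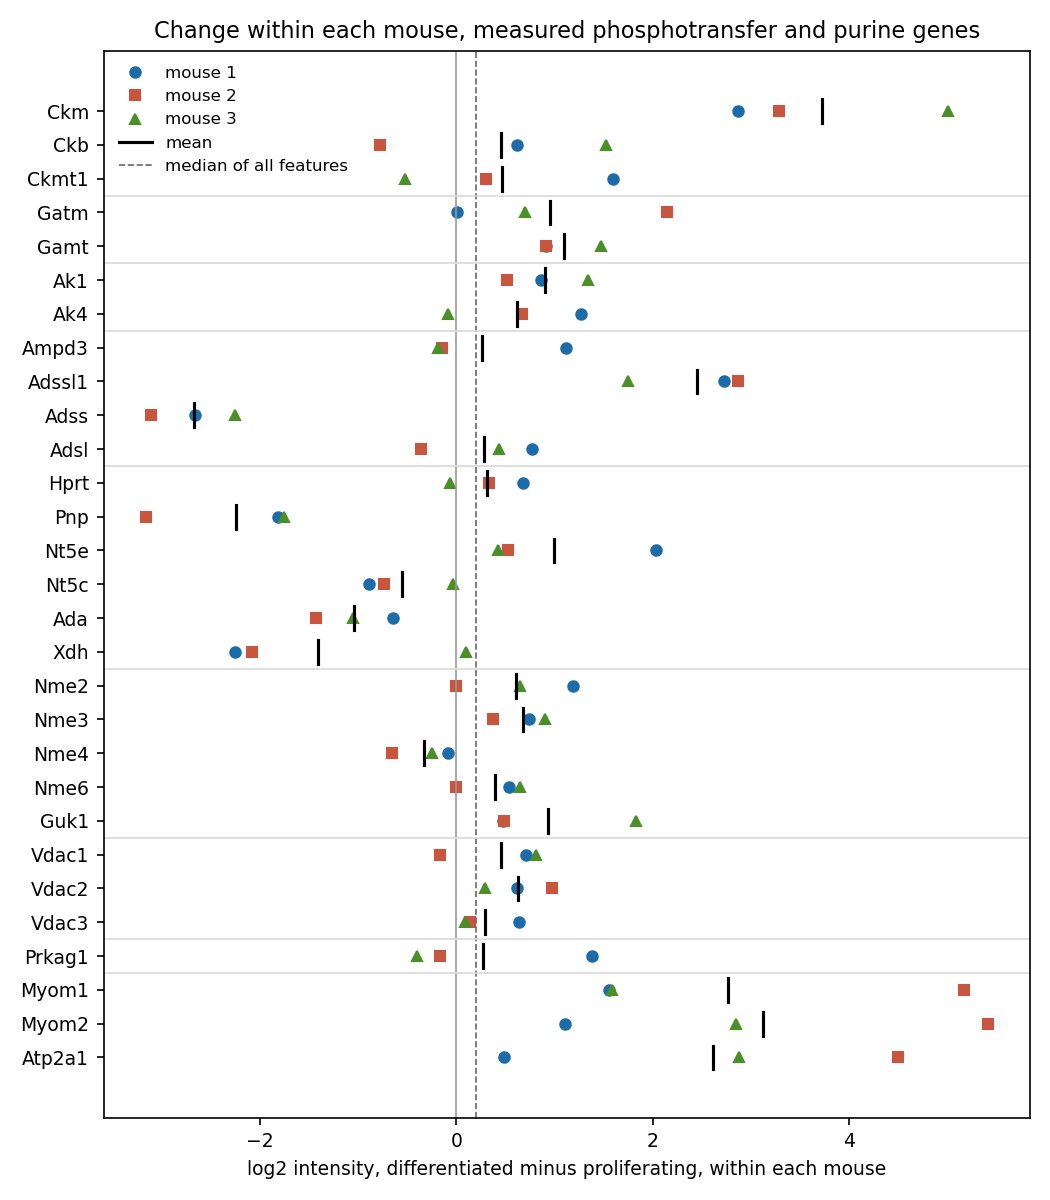
Log2 intensity of differentiated minus proliferating culture within each mouse (1 symbol per mouse, black bar for the mean) for the 29 measured genes of the pathway lists, in list order, with the median of all features dashed. Ckm has the largest mean, 3.72, and Adss the lowest, -2.68.

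The genes most like each member over the 6 arrays were ranked by Pearson correlation of log2 values among 4499 named genes, as a description. For Ckm these were Fbxw5 (r = 0.995), Rbm18 (0.994) and Timm9 (0.993), and for Ak1 they were Vapb (0.999), Alpk3 (0.994) and Lcmt1 (0.992). Correlation takes no account of the size of a difference. Fbxw5 had intensities of 7.24, 2.43 and 7.22 in differentiated cultures against 4.39, 1.53 and 2.56 in proliferating cultures, a log2 difference of 0.96 against 3.72 for Ckm. Vapb had 10.5, 4.99 and 5.55 in differentiated cultures against 5.53, 3.48 and 2.08 in proliferating cultures, a log2 difference of 0.95 beside 0.90 for Ak1. The 6 arrays share 3 mice and their conditions, which all genes have in common.

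Marker lists were read beside these results. Muscle lineage genes (12 of 14 measured) summed to intensities of 742 to 1270 in differentiated and 263 to 734 in proliferating cultures. Proliferation genes (7 of 9) summed to 16.7 to 24.9 in differentiated and 89.7 to 153 in proliferating cultures. The sums overlapped on neither list, but only narrowly so for muscle lineage genes (742 against 734). Without a block limma called 0 of the 12 muscle lineage genes and 5 of the 7 proliferation genes, all 5 lower. Over all features it called 0.285% higher and 1.01% lower. The fixed-mouse fit called 2 muscle lineage genes higher (Myf6 and Mef2c) and 3 proliferation genes lower, against 0.56% and 0.874% of all features. The random-mouse fit called 7 muscle lineage genes higher and 7 proliferation genes lower, against 5.07% and 5.28%. In all 3 mice 9 muscle lineage genes were higher and 1 lower, and all 7 proliferation genes were lower. Summed intensities of fibroblast genes (7 of 9) were 1.53 to 1.84 in differentiated and 3.31 to 4.00 in proliferating cultures. Most of the proliferating sum was Fbln1, with 0.55, 0.11 and 0.49 in differentiated cultures of mice 1, 2 and 3 against 2.19, 3.01 and 3.47 in proliferating cultures, while the median log2 difference of the list was 0.53, with 2 genes higher and 1 lower in all 3 mice. The sums of adipocyte genes (3 of 7) were 1.75 to 2.82 in differentiated and 0.76 to 4.31 in proliferating cultures, and those of endothelial genes (6 of 7) 0.47 to 1.14 in differentiated and 0.46 to 0.93 in proliferating cultures. Macrophage genes (4 of 7) summed to 0.34 to 1.15 in differentiated and 0.44 to 1.40 in proliferating cultures. Neural genes (3 of 7), listed because neural cells carry Ckb, summed to 0.61 to 1.12 in differentiated and 0.43 to 0.71 in proliferating cultures. The largest single intensity was 3.47 among fibroblast, 2.77 among adipocyte and 1.16 among macrophage genes, above the array medians, and 0.305 among endothelial and 0.853 among neural genes, below them. Smooth muscle genes (5 of 5) summed to 59.4 to 170 in differentiated and 12.8 to 98.3 in proliferating cultures, with a median log2 difference of 1.08 and 3 of 5 genes higher in all 3 mice. Acta2 held most of the sum, Smtn had 6.44 to 20.9 in differentiated and 2.93 to 14.1 in proliferating cultures, Tagln had 2.44 to 13.3 in differentiated and 1.17 to 3.90 in proliferating cultures, and Cnn1 and the defining marker Myh11 reached 0.547 and 0.355. Acta2 had intensities of 146, 49.7 and 148 in differentiated cultures of mice 1, 2 and 3, against 80.1, 8.59 and 81.1 in proliferating cultures, lowest in mouse 2 as Ckm was. Differentiating skeletal muscle cells are also known to express Acta2, and the part of these genes in the results was not tested. Array medians lay between 0.883 and 0.939.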

How the data were processed

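Biotin-labelled cRNA from 5 µg of total RNA went onto CodeLink arrays, as the labels' protocols state. The authors deposited linear intensities, with 13 to 89 values per array at or below 0. How they were scaled and corrected for background is not given in the sources used here. The number of arrays, 3 per group, limits the precision.

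A floor of 0.0236, the 1st percentile of all positive values, was set before log2. All 10186 features with at least 2 values per group were fitted together in limma 3.58.1 under R 4.3.3 (lmFit, eBayes) with condition as the only term and Benjamini-Hochberg adjustment, at a threshold of 0.05. Differences are log2 differentiated minus proliferating of the deposited intensities. Each mouse gave both cultures, per the labels, which do not tie the replicate numbers to mice. Same-numbered arrays deviated from their group means together (correlations 0.42, 0.37 and 0.28), and the numbers were taken to pair the arrays. These correlations do not show that a number is a mouse. Fits with mouse as a fixed block or random effect (correlation 0.535) were run as well. The fits without a block and with the fixed block were also tested on simulated data.

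Gene symbols came from the platform annotation; 6373 features matched RefSeq by Entrez ID and 0 symbols changed. The members, gene lists and tests were chosen with earlier results of these data known. Named were the members, all measured creatine kinases, adenylate kinases and enzymes of AMP deamination and the purine nucleotide cycle, genes called in any of the 3 fits from the other lists or else up to 2 with the smallest p, and 3 genes most like each member. Alternatives covered the floor, pseudocount, scaling, dim and incomplete features, variance prior, blocks, and left-out arrays and mice.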

Additional observations from a re-analysis of the deposited data

How the results depend on the processing

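Ckm and Ak1 kept their direction and missed the threshold under all 19 alternatives (limma adjusted p = 0.0516 to 0.76 for Ckm and 0.139 to 0.845 for Ak1). Leaving out 1 array gave differences of 2.06 (without proliferating replicate 2) to 5.60 (without differentiated replicate 2) for Ckm, and of 0.55 to 1.26 for Ak1. Leaving out both arrays of a mouse gave 3.08 to 4.15 and 0.69 to 1.10. Quantile normalization moved the median of all features by -0.17, with Ckm at 3.56 and Ak1 at 0.62. The replicate block, which follows the pairing by mouse, changed no call for either member. Ckmt2 and Ampd1 were not run, and there was no other feature per gene to try.

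Counts over all features, 29 higher and 103 lower, became 65 and 178 when the floor was raised to the 10th percentile, 127 and 266 under the pseudocount, 136 and 279 over the 6790 brighter features, and 125 and 263 under the trended, robust prior. With quantile normalization 162 were lower. The replicate block gave 57 higher as a fixed term, and 516 and 538 as a random effect, where pathway genes called became 3 higher and 2 lower (0 and 1 without a block). An adjusted p under 0.01 gave 0 and 0 in limma, with 1519 at an unadjusted p under 0.05. Leaving out arrays or mice gave 0 to 91 higher and 0 to 88 lower, with 854 to 1583 at an unadjusted p under 0.05.

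For the other named pathway genes the members' alternatives were added after seeing the data (18 for Ckmt1, which is among the dimmest features, and 19 for each of the rest), and the genes most like each member were not rerun. Among the pathway genes signs turned where arrays or mice were left out and under no other of these alternatives, and the genes concerned passed in none of them: Ckb ran over these from -0.077 (without replicate 3) to 1.07, Adsl from -0.062 (without differentiated replicate 1) to 0.74, Ckmt1 from -0.11 (without replicate 1; -0.10 without differentiated replicate 1 alone) to 1.00, Ampd3 from -0.17 to 0.55 (-0.11 without differentiated replicate 1 alone) and Prkag1 from -0.45 (without differentiated replicate 1; -0.29 without replicate 1) to 0.65. Adss passed in 9 of 19 alternatives, Pnp in 4, Myom2 in 3, and Adssl1 and Atp2a1 in 1 each, the random effect. Signals near the dim end, such as Ckmt1 throughout and Ckm and Myom2 in proliferating replicate 2, are the least certain in size.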
